A study of Mus musculus with 3 samples.

Results

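RNA from the liver of diet-restricted Ercc1 mutants (Ercc1 DR) was set against that of mutants fed freely (Ercc1 AL). The series holds 3 libraries of total RNA freed of ribosomal RNA, and this comparison uses 2 of them, 1 per group. They were taken by their titles, and the third, from wild-type mice fed freely (wt AL), is given beside them as a value. Both mutant groups had the genotype Ercc1 delta/-, so restricted and freely fed mice carried the same alleles, and all 3 groups were on a C57BL6J/FVB background and 16 weeks old. A restricted wild-type group was not analysed here, so what restriction goes with can be described in the mutant only. The labels do not say how many animals stand behind a library, nor their sex, the hour at which livers were taken, the time since the last meal, or the degree and length of the restriction. Each group has 1 library, so differences between animals cannot be measured and the values carry neither SD nor p. A difference described below is one between 2 libraries, and the part that animals, sampling hour or feeding state had in it was not tested.

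ERCC1 and its partner XPF form an endonuclease that cuts damaged DNA in nucleotide excision repair and in crosslink repair. Mice with little ERCC1 activity grow poorly and age early, and the liver is among the affected tissues. Diet restriction lowers food intake while avoiding malnutrition. In liver it is known to shift fuel use from meals to stores, in steps driven by falling insulin and by glucagon, glucocorticoids and fatty acid sensing receptors. Amino acids then feed glucose synthesis, and their nitrogen leaves as urea. Many liver enzymes of steroid and drug metabolism also differ between the sexes, through the rhythm of growth hormone release.

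Levels are given as deposited, in FPKM, which scales fragments to transcript length and to the mapped total, so that genes can be set side by side. In the text, 3 FPKM values in a row stand in the order Ercc1 DR, Ercc1 AL and wt AL. The log2 ratio is that of FPKM + 1 in Ercc1 DR over Ercc1 AL, less its median over 9053 genes that reach 1 FPKM in every library. That median was 0.26, so every value here lies 0.26 below the ratio as deposited, and a value between -0.26 and 0 was above 0 before centring. The same median for Ercc1 AL over wt AL was 0.37. FPKM values and their sums are not centred, so a typical gene stands highest in Ercc1 DR and lowest in wt AL. The order of 3 levels is to be read beside this offset. Adding 1 pulls the ratio of genes near or below 1 FPKM towards 0. Genes were measured where either mutant library had at least 1 FPKM. "Higher" and "lower" used of a gene in a count mean at least 2-fold on this scale, and genes just past -1 were within 2-fold as deposited. Each deposited interval comes from 1 library and does not measure differences between libraries. What it covers is not given in the sources used here. For most abundant genes the deposited FPKM lies above its own interval (587 of 685 genes of at least 100 FPKM in Ercc1 DR, 574 of 655 in Ercc1 AL). Depth is not known because the tables hold no counts. The interval reached 11.95% to either side of its midpoint for the median gene of 1 to 2 FPKM in Ercc1 DR and 11.8% in Ercc1 AL, and 2.10% and 2.05% for genes of 100 to 200 FPKM.

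Of 12295 genes measured, 397 (3.23%) were higher and 1547 (12.6%) lower in Ercc1 DR. Among the 10552 with official symbols, which leave out predicted models, small RNA genes and pseudogenes, 353 (3.35%) were higher and 847 (8.03%) lower. As deposited, without centring, the same official genes split into 737 higher and 493 lower. Thus 29.4% of the genes past 2-fold were higher after centring and 59.9% before, and which direction prevailed depends on the scale. Where either mutant library reached 5 FPKM, 340 of 4330 official genes (7.85%) were higher and 448 (10.3%) lower. These shares are the background against which counts of group members are read below. The lists were chosen with earlier results of these data known, so a count beyond these shares describes the list and is not independent evidence.

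**Figure D1:**
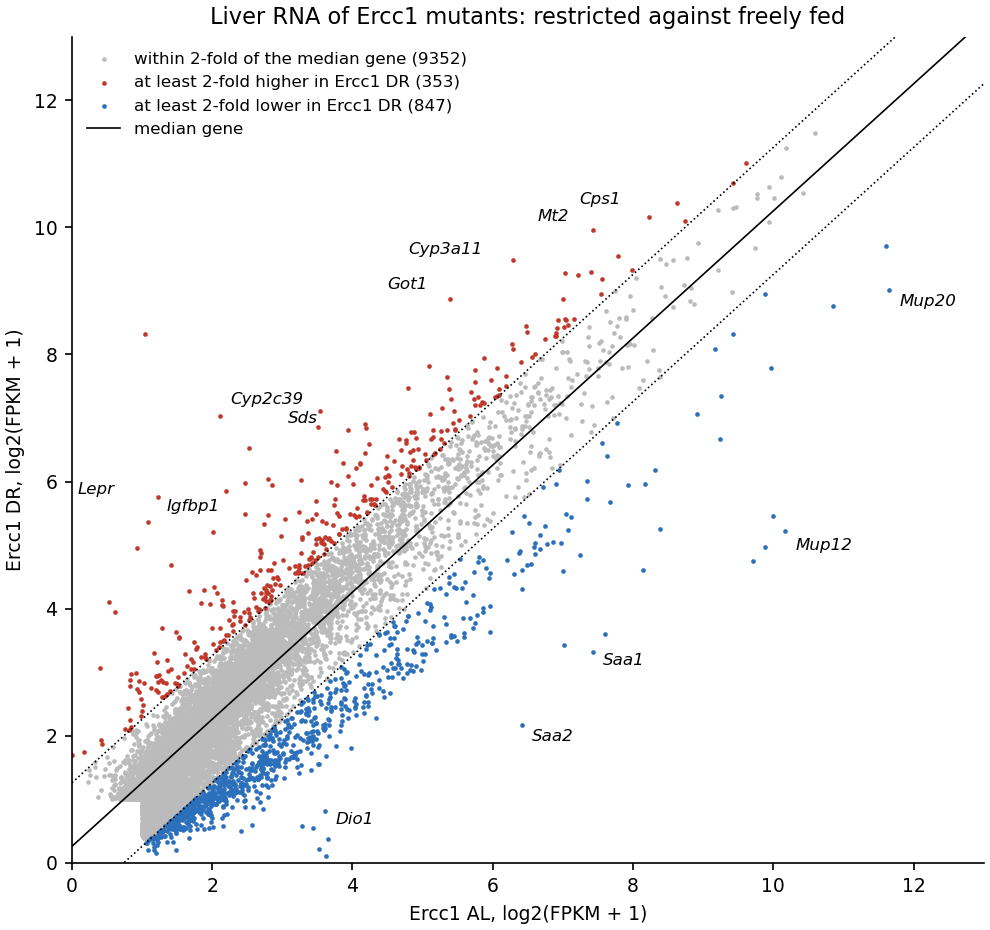
Level of each official gene in Ercc1 AL (x axis) and Ercc1 DR (y axis), both as log2(FPKM + 1). The solid line is the median gene and the dotted lines lie 2-fold to either side; 353 genes lie above them and 847 below, with Lepr and Cyp2c39 among the farthest above and Mup12 among the farthest below.

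The ratio went with the level of the gene. Official genes with a mean of 2 to 5 FPKM over the libraries had a median log2 ratio of 0.04, and those of 20 to 100 FPKM one of 0.39, with 15.7% higher and 13.1% lower. Those of 100 FPKM and over had one of 0.30, with 18.9% higher and 17.4% lower. For groups of abundant genes the counts and medians below are to be read beside these values too. Measured official genes with a mean under 1 FPKM had a median of -0.46, and 40 of 908 were lower against 2 higher. They were measured only where a mutant library reached 1 FPKM, so this median also depends on that filter. Transcripts that liver is not known to use lay low beside these genes. Olfactory and vomeronasal receptor genes had a median of 0.0916 FPKM in Ercc1 DR, 0.182 in Ercc1 AL and 0.131 in wt AL, and 1398 of 1445 were below Ercc1 AL in Ercc1 DR. Small RNA genes, whose short transcripts give large and unstable FPKM, had a median log2 ratio of -1.82 (703 measured, 26 higher, 501 lower). The part of this low background in the values of single low or short genes was not tested. The targeted gene checks no label, since Ercc1 stood at 0.475, 0.573 and 0.461 FPKM and a sum over the gene does not separate alleles. Rows without an estimate were left out (97 in either mutant library), among them Alb, 8 major urinary protein genes, Rpl3, Idh3b and Eif4a2.

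**Figure D2:**
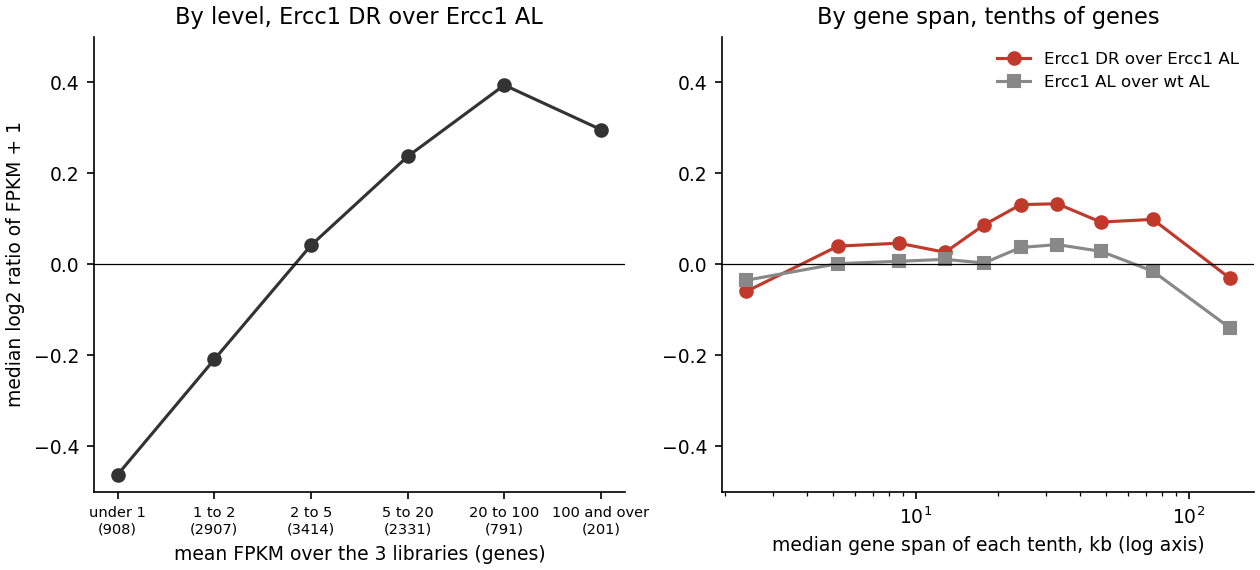
Median log2 ratio of FPKM + 1 by level of the gene (left, mean FPKM over the 3 libraries, number of official genes in brackets) and by gene span (right, 10 bins of equal gene number, at least 1 FPKM in each library). The left panel goes from -0.46 to 0.39 for Ercc1 DR over Ercc1 AL, while the 10 bins on the right lie between -0.06 and 0.13, with Ercc1 AL over wt AL beside them from -0.14 to 0.04.

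High ratios were found in a hormone receptor, enzymes of steroid and lipid handling and a receptor of autophagy. Lepr, the leptin receptor, lies at chr4:101717407-101815354 and stood at 53.03, 1.34 and 0.738 FPKM (log2 ratio 4.27). Sult1e1, which sulphates and inactivates estrogen, stood at 30.1, 0.905 and 0.0955 FPKM (log2 ratio 3.77), and wt AL was lower still. Agxt2l1, a phospholyase that clears phosphoethanolamine, stood at 91.4, 4.75 and 5.53 FPKM (log2 ratio 3.75). Fam134b, a receptor that hands endoplasmic reticulum to autophagy, stood at 115, 10.4 and 2.199 FPKM (log2 ratio 3.09). Akr1b7, an aldose reductase family member, was at 14.5, 0.538 and 0.490 FPKM (log2 ratio 3.07), and Gstt3, a theta class glutathione transferase, at 24.7, 1.66 and 2.89 FPKM (log2 ratio 3.01). In each of these 6 genes Ercc1 DR stood far above both freely fed libraries. The intervals of Ercc1 DR and Ercc1 AL did not overlap for any of the 15 highest and 15 lowest genes, as for 76.8% of all official genes measured.

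At the lower end stood genes of male-type liver and of the acute phase. Of the 15 lowest, 8 were major urinary protein genes, pheromone carriers of male mice. All 12 family members with an estimate were lower (median log2 ratio -3.79, from -5.23 for Mup13 to -2.16 for Mup3). The genes are near-identical and share reads, so the family is better founded than any member, and Mup20, its highest value in Ercc1 AL, stood at 516, 3205 and 368 FPKM (log2 ratio -2.89). Saa1 and Saa2, serum amyloids that the liver secretes in inflammation, stood at 8.94, 171 and 54.2 FPKM (log2 ratio -4.37) and 3.495, 84.2 and 16.1 FPKM (log2 ratio -4.50). Hsd3b5, a steroid reductase of male liver, was at 0.166, 10.5 and 3.17 FPKM (log2 ratio -3.56), and Elovl3, an elongase of very long fatty acids, at 0.304, 11.6 and 3.34 FPKM (log2 ratio -3.53). For Saa1, Saa2, Hsd3b5 and Elovl3, wt AL lay between the mutant libraries. Dio1, which activates thyroid hormone, stood at 0.755, 11.2 and 11.1 FPKM (log2 ratio -3.05), with both freely fed libraries close together. Lce3a, a gene of the skin barrier, was among them at 9.72, 128 and 95.5 FPKM (log2 ratio -3.85).

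Promoter sequences are shown for 6 genes from these and the groups below, because a regulator of each is textbook knowledge: Saa1 and Saa2 by C/EBP factors in the acute phase, Mt1 and Mt2 by the metal sensor MTF1, Igfbp1 by forkhead factors that insulin restrains, and Hamp by STAT3. Each line gives the 250 bases before the start site from RefSeq (GRCm38.p6, the build named mm10), 5′ to 3′ on the strand of the gene, with matches of the motif on either strand in capitals. The motifs were TTGCNNAA (C/EBP type, in 9.56% of all 32851 promoter entries over the same window), TGCNCNC (metal response core, 44.4%), AAACAA (forkhead type, 18.3%) and TTCNNNGAA (STAT type, 7.02%). A match describes letters and shows neither binding nor a cause.
Saa1 (chr7:46742981-46743230, minus strand): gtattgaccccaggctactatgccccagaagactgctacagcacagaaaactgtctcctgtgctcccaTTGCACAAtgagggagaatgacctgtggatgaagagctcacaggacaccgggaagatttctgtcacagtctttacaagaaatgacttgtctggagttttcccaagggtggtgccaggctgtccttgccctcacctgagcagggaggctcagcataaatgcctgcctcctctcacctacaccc
Saa2 (chr7:46751583-46751832, plus strand): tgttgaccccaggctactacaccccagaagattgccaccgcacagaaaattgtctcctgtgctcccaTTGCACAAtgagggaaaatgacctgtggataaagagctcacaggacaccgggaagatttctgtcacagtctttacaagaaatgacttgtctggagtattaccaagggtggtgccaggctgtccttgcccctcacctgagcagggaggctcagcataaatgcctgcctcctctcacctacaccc
Mt1 (chr8:94178839-94179088, plus strand): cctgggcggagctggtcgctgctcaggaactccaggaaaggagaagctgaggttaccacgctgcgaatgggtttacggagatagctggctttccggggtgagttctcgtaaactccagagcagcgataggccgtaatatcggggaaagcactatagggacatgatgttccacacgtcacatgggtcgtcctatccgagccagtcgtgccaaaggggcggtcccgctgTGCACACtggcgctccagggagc
Mt2 (chr8:94172368-94172617, plus strand): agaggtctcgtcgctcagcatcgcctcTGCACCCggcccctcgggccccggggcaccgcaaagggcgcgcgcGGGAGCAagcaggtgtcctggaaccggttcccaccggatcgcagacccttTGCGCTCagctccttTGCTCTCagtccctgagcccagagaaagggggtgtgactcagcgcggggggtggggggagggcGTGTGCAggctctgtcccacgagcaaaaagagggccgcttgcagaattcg
Igfbp1 (chr11:7197537-7197786, plus strand): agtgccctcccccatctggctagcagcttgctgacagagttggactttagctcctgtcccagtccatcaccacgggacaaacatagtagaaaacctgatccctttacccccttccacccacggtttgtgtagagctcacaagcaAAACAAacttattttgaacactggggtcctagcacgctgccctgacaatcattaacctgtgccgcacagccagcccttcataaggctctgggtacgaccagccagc
Hamp (chr7:30944030-30944279, minus strand): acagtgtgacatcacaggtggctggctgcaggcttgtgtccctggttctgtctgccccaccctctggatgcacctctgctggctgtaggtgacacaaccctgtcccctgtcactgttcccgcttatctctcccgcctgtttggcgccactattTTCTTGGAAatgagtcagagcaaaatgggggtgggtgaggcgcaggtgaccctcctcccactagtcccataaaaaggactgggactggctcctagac

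The upstream sequences of Saa1 and Saa2 were 94.8% identical (238 of 251 aligned positions), and both held the C/EBP-type match, at positions -182 and -183 from the start. Mt2 held 5 matches of the metal response core and Mt1 held 1. Igfbp1 and Hamp held 1 match each, at -106 and -97. The genes Saa1, at chr7:46740499-46742980, and Saa2, at chr7:46751833-46754314, lie near each other on opposite strands. Of the official genes measured, 8099 of 10552 had an entry in the promoter table.

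How strand was used in quantification is not given in the sources used here, so reads of a gene and of one whose exons overlap it on the other strand cannot be told apart. Among genes past 2-fold named in the text, such an overlap is annotated for Akr1b7, Elovl3, Sds, Acmsd, Nags, Slc7a2, Gapdh, Pdha1, Uqcrc2, Cox5a, Abcg5, Acot3, Ugt1a1, Sult1a1, Cish, Prox1, Bcl6, Mt2, Ppox, Alas2, Enho, Inhbc, Apoa4, Pltp, Mogat2, Cp, Ctsl, F5, Usp18, Cebpd, Junb, Fancm, Mcm7, Bnip3, Tug1, Gpr182, Rrp9 and Rps2. The partners include known genes, such as Pitx3 for Elovl3, Hps3 for Cp and Ctsa for Pltp, and predicted ones, such as Gm13857 for Akr1b7. Small RNA genes lie inside Mcm7, Rian, Rpl39 and Rps2.

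**Figure D3:**
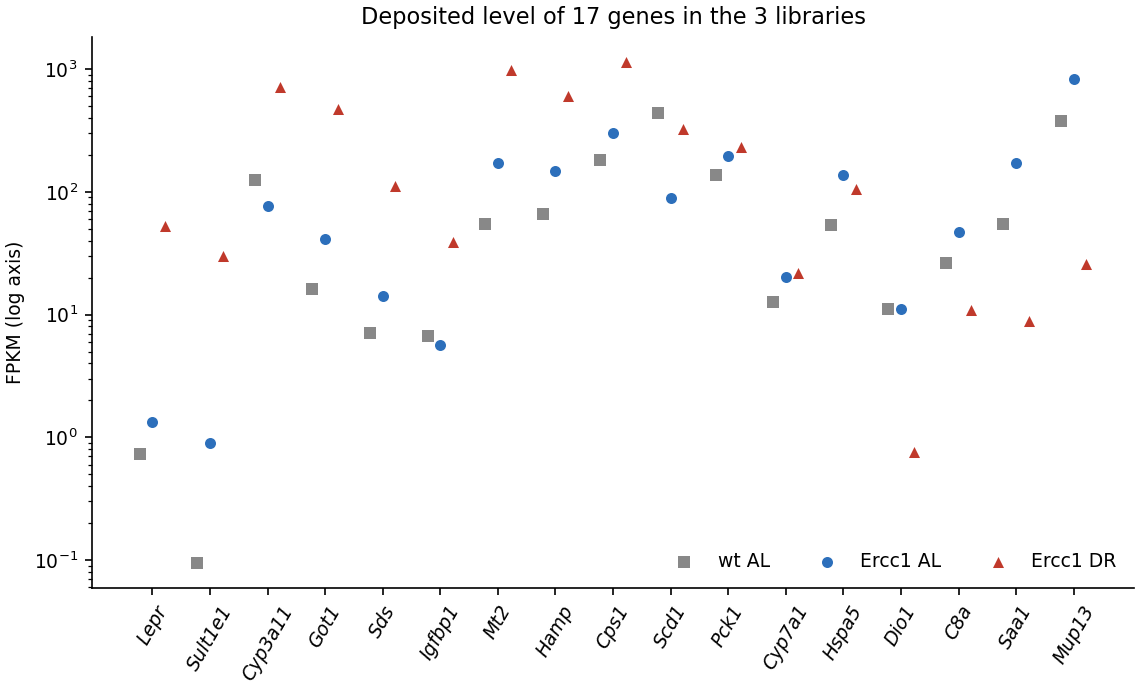
Deposited FPKM (log axis) of 17 genes named in the text, one marker per library. Ercc1 DR stands above both freely fed libraries from Lepr to Cps1 and below both from Dio1 to Mup13, while Pck1 and Cyp7a1 differ little and Scd1 stands between Ercc1 AL and wt AL.

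Amino acid breakdown had at least 1 higher enzyme in every branch but that of the branched-chain amino acids. Of 53 measured, 15 were higher and 1 lower. The median log2 ratio was 0.62, beside -0.03 over all official genes and 0.39 over those of 20 to 100 FPKM. Among aminotransferases and shared steps 5 of 8 were higher (median 1.17). Got1, the cytosolic aspartate aminotransferase of the malate-aspartate shuttle, stood at 470.3, 41.00 and 16.1 FPKM (log2 ratio 3.23). Its mitochondrial partner Got2 was within 2-fold, at 75.1, 50.5 and 31.7 FPKM (log2 ratio 0.30). Glud1, glutamate dehydrogenase, which frees ammonia for urea, was at 219.7, 66.03 and 48.6 FPKM (log2 ratio 1.46), and the tyrosine aminotransferase Tat, a classical glucocorticoid target, at 304, 106 and 74.3 FPKM (log2 ratio 1.25). Sds, which turns serine into pyruvate, led the serine, threonine and glycine branch (2 of 7 higher) at 112, 14.3 and 7.08 FPKM (log2 ratio 2.62), and Gldc of the glycine cleavage system was at 37.1, 13.4 and 8.71 FPKM (log2 ratio 1.15). Both stood highest in Ercc1 DR and lowest in wt AL, an order that a typical gene also has before centring. In phenylalanine and tyrosine breakdown 3 of 7 were higher, with Hpd, a dioxygenase of tyrosine breakdown, at 354, 134 and 63.96 FPKM (log2 ratio 1.14). For tryptophan, Tdo2, its rate-limiting dioxygenase, stood at 746, 219 and 111 FPKM (log2 ratio 1.502), and Acmsd, which diverts the pathway from NAD synthesis, at 28.3, 5.45 and 1.82 FPKM (log2 ratio 1.93). Aass, the first enzyme of lysine breakdown, was at 177, 26.7 and 12.2 FPKM (log2 ratio 2.42) and histidase, Hal, at 50.5, 10.1 and 6.97 FPKM (log2 ratio 1.95). The branched-chain list had 0 of 13 higher (median 0.37), with Bckdha of the rate-limiting dehydrogenase at 14.3, 10.4 and 5.59 FPKM (log2 ratio 0.16). Its 1 lower member, Mccc2, stood at 29.2, 82.5 and 169 FPKM (log2 ratio -1.73), highest in wt AL, while its partner subunit Mccc1 was at 7.81, 4.096 and 2.68 FPKM (log2 ratio 0.53).

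Nitrogen disposal went the same way. Of 6 urea cycle enzymes 4 were higher (median 1.27). Cps1, the rate-limiting carbamoyl phosphate synthetase, stood at 1146, 299 and 182 FPKM (log2 ratio 1.68), and Nags, which makes its activator, at 33.5, 10.5 and 5.36 FPKM (log2 ratio 1.32). Arginase, Arg1, was at 626, 169 and 89.2 FPKM (log2 ratio 1.63) and Asl at 201, 71.9 and 52.8 FPKM (log2 ratio 1.21). Otc and Ass1, the remaining steps, were within 2-fold, at log2 ratios of 0.38 and 0.41. In a list of carriers and glutamine handling genes 3 of 10 were higher, all of them carriers, and 7 were within 2-fold (median 0.69). Slc25a22, the mitochondrial glutamate carrier, stood at 65.01, 5.93 and 2.79 FPKM (log2 ratio 2.99), the ornithine carrier Slc25a15 at 175, 40.6 and 15.2 FPKM (log2 ratio 1.83) and the cationic amino acid carrier Slc7a2 at 76.2, 16.2 and 4.07 FPKM (log2 ratio 1.91). Glul, which stores nitrogen as glutamine around the central vein, was at 40.4, 45.2 and 34.4 FPKM (log2 ratio -0.42). Of the sulphur amino acid list 5 of 22 were higher and none lower (median 0.43). Mat1a, which makes S-adenosylmethionine in liver, stood at 581, 188 and 106 FPKM (log2 ratio 1.37), and Cth, the cystathionine lyase that makes cysteine and hydrogen sulfide, at 225, 33.2 and 12.7 FPKM (log2 ratio 2.47). Cdo1, which commits cysteine to taurine and sulfate, was at 623, 130.1 and 69.98 FPKM (log2 ratio 1.99) and Sqrdl, which oxidises sulfide, at 137, 42.5 and 30.2 FPKM (log2 ratio 1.41). Cbs, the step before Cth, was at 33.1, 25.1 and 16.8 FPKM (log2 ratio 0.12). Csad, the next enzyme towards taurine, stood at 1.19, 1.44 and 16.2 FPKM (log2 ratio -0.41), low in both mutant libraries.

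**Figure D4:**
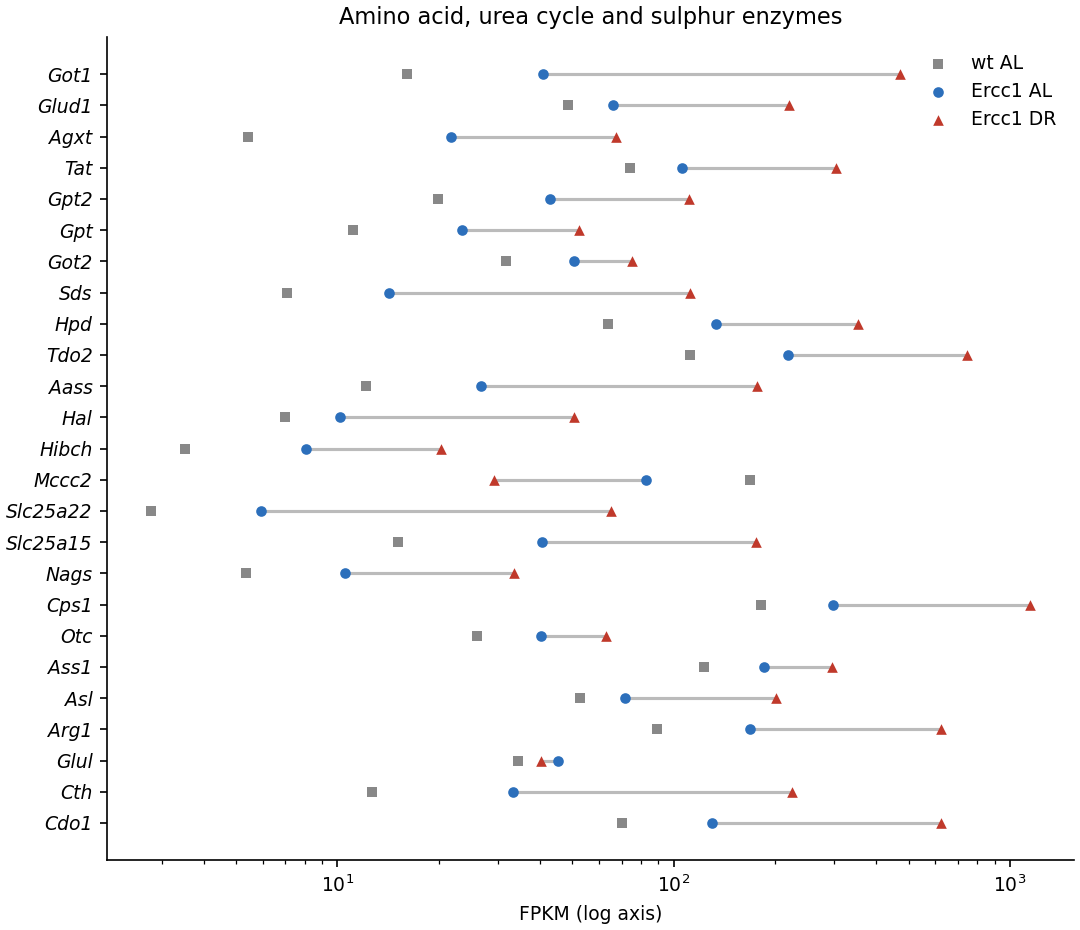
FPKM (log axis) of 25 enzymes and carriers of amino acid breakdown, the urea cycle and sulphur amino acids in Ercc1 DR, Ercc1 AL and wt AL, with a grey bar joining the mutant libraries. In 23 of them Ercc1 DR is the highest, and Mccc2 and Glul are the exceptions. The levels are not centred, and a typical gene also stands highest in Ercc1 DR.

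Polyamine and choline genes held further high members. Sat1, which acetylates polyamines for export, stood at 42.5, 15.5 and 8.204 FPKM (log2 ratio 1.14), and Odc1, the rate-limiting ornithine decarboxylase, at 16.7, 7.94 and 5.74 FPKM (log2 ratio 0.72). Amd2 and Amd1, near-copies of the next step whose reads may be split between them, had log2 ratios of 1.76 and -0.80. Gpcpd1, which frees choline from glycerophosphocholine, was at 77.3, 16.2 and 2.88 FPKM (log2 ratio 1.93) and ethanolamine kinase Etnk2 at 62.5, 21.6 and 8.93 FPKM (log2 ratio 1.23). Over both lists 5 of 26 were higher and none lower (median 0.42). Agxt2l1, described above, is 1 of the 5 and is also counted in the amino acid list.

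Gluconeogenic enzymes lay closer to the median gene than the amino acid enzymes that feed them. None of 8 was past 2-fold (median 0.23). Pck1, the rate-controlling carboxykinase, stood at 234, 194 and 136 FPKM, with a log2 ratio of 0 after centring, and G6pc, which releases free glucose, at 19.3, 22.5 and 16.6 FPKM (log2 ratio -0.47). Fbp1 was at 148, 89.6 and 91.7 FPKM (log2 ratio 0.46) and the glucose-6-phosphate carrier Slc37a4 at 35.3, 14.6 and 9.304 FPKM (log2 ratio 0.96). In the list of their regulators 1 of 12 was higher, Igfbp1, at 39.3, 5.701 and 6.63 FPKM (log2 ratio 2.33). Igfbp1 encodes an IGF binding protein repressed by insulin and is a target in that list, not a regulator of these enzymes. The other members were within 2-fold on this scale. Ppargc1a, a coactivator of fasting metabolism, stood at 3.196, 0.811 and 0.592 FPKM (log2 ratio 0.95). With a pseudocount of 0.1 its log2 ratio was 1.53, past 2-fold. Foxo1, the forkhead factor restrained by insulin, stood at 6.21, 2.62 and 2.65 FPKM (log2 ratio 0.73). The insulin receptor branch had 0 of 13 past 2-fold (median 0.02), with Irs2 at 1.73, 1.72 and 1.81 FPKM (log2 ratio -0.26) and Insr at 10.9, 5.57 and 4.13 FPKM (log2 ratio 0.59).

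Transcripts of glucose use genes were not lower as a group. Of 16 genes of glucose uptake and glycolysis 4 were higher and none lower (median 0.64). Gapdh, the dehydrogenase midway in the pathway, stood at 159, 54.5 and 76.3 FPKM (log2 ratio 1.27) and the isomerase Gpi1 at 23.2, 8.35 and 9.87 FPKM (log2 ratio 1.11). Pklr, the liver pyruvate kinase and last regulated step, was at 14.1, 12.2 and 27.3 FPKM (log2 ratio -0.06). Glycogen genes had 1 of 9 higher, glycogen synthase Gys2, at 72.3, 26.4 and 13.8 FPKM (log2 ratio 1.16), while the phosphorylase Pygl was at 48.4, 28.9 and 26.2 FPKM (log2 ratio 0.46). Ketohexokinase Khk, the first step of fructose use, stood at 67.8, 32.1 and 79.4 FPKM (log2 ratio 0.80).

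Mitochondrial fuel oxidation genes lay above the median gene. Of 22 TCA cycle and pyruvate genes measured 8 were higher and none lower (median 0.83). Idh3a, a subunit of the rate-controlling isocitrate dehydrogenase, stood at 23.4, 5.41 and 1.17 FPKM (log2 ratio 1.67), Mdh2 at 89.5, 24.8 and 19.01 FPKM (log2 ratio 1.55) and fumarase, Fh1, at 89.6, 28.2 and 14.04 FPKM (log2 ratio 1.37). Pdha1, which admits pyruvate, was at 43.8, 14.7 and 11.8 FPKM (log2 ratio 1.26). Citrate synthase, Cs, stood apart at 35.3, 44.3 and 57.9 FPKM (log2 ratio -0.58) and was highest in wt AL. Nuclear-encoded respiratory chain genes had 16 of 83 higher and none lower (median 0.68), and 77 of 83 lay above the median gene. All official genes of 20 to 100 FPKM had a median of 0.39, with 15.7% higher. By complex the medians were 0.63 for complex I (5 of 37 higher), 0.80 for II (1 of 4), 0.85 for III (2 of 9), 0.59 for IV (3 of 16) and 0.77 for V (5 of 17). Uqcrc2, a core subunit of complex III, led the abundant members at 99.5, 26.2 and 21.3 FPKM (log2 ratio 1.63), beside Cox5a of complex IV at 90.8, 29.5 and 20.9 FPKM (log2 ratio 1.33) and Atp5c1 of the ATP synthase at 192, 61.9 and 46.01 FPKM (log2 ratio 1.36). The c ring genes Atp5g1 and Atp5g2 had log2 ratios of -0.63 and -0.70 while Atp5g3, which encodes the same mature protein, was at 1.03. Carriers of the inner membrane were mixed (4 of 32 higher, 2 lower), with the phosphate carrier Slc25a3 at 169, 50.5 and 35.8 FPKM (log2 ratio 1.46) and Slc25a30 at 3.85, 14.3 and 21.6 FPKM (log2 ratio -1.92).

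Transcripts of fatty acid synthesis enzymes were not lower in Ercc1 DR than in Ercc1 AL, where they were already low beside wt AL. Of 12 enzymes measured 2 were higher and none lower (median 0.35). Their median centred log2 ratio of Ercc1 AL over wt AL was -1.37, and the list summed to 446, 158 and 586 FPKM. Scd1, the desaturase that makes oleate, stood at 325, 88.7 and 441 FPKM (log2 ratio 1.60), and ATP citrate lyase Acly at 28.8, 9.78 and 17.2 FPKM (log2 ratio 1.21). Fasn, the synthase, was at 12.6, 6.86 and 13.2 FPKM (log2 ratio 0.53) and Acaca, the rate-limiting carboxylase, at 5.54, 3.97 and 10.1 FPKM (log2 ratio 0.14). In Scd1, Acaca, Me1 (16.2, 11.2 and 36.6 FPKM) and Acss2 (5.61, 4.21 and 12.8 FPKM), Ercc1 DR lay between Ercc1 AL and wt AL. Srebf1, the insulin-driven activator of these genes, was at 9.12, 5.09 and 3.57 FPKM (log2 ratio 0.47), and Insig2, which holds it back and is repressed by insulin, at 44.9, 17.6 and 11.1 FPKM (log2 ratio 1.05). Of elongases and desaturases none of 9 was higher and only Elovl3 lower. Triglyceride genes included Lpin1, a phosphatidate phosphatase of fasting, at 73.4, 21.3 and 8.26 FPKM (log2 ratio 1.48), and Gpam, the first acyltransferase, at 26.4, 9.45 and 4.603 FPKM (log2 ratio 1.13), with 3 of 9 synthesis genes higher and Mogat2 lower (1.69, 3.93 and 2.54 FPKM). Of droplet and lipolysis genes 3 of 12 were higher. Cd36, a fatty acid uptake receptor, stood at 44.9, 8.45 and 8.01 FPKM (log2 ratio 2.02), Pnpla2, the triglyceride lipase that opens lipolysis, at 15.7, 3.41 and 1.81 FPKM (log2 ratio 1.66) and the droplet protein Cidec at 8.18, 1.56 and 1.01 FPKM (log2 ratio 1.58). Plin2, which coats droplets, was at 29.95, 40.5 and 43.00 FPKM (log2 ratio -0.68).

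Mitochondrial fatty acid oxidation genes lay within 2-fold in all 18 cases, all 18 above the median gene. Their median was 0.52, beside 0.39 over all official genes of 20 to 100 FPKM. Cpt1a, the rate-limiting carnitine transferase, stood at 55.5, 34.2 and 13.1 FPKM (log2 ratio 0.42) and Acadl at 61.2, 27.1 and 18.5 FPKM (log2 ratio 0.89). The peroxisomal and omega oxidation genes spread widely, with 4 of 11 higher and 1 lower. Cyp4a14 and Cyp4a10, omega hydroxylases that PPARA induces, stood at 138, 10.6 and 15.9 FPKM (log2 ratio 3.32) and 113, 17.2 and 10.5 FPKM (log2 ratio 2.39), and Ehhadh at 75.1, 25.1 and 16.9 FPKM (log2 ratio 1.28). Cyp4a12a, a male-type member of the same cluster, was at 0.462, 9.82 and 33.4 FPKM (log2 ratio -3.15). Pdk4, which spares pyruvate, stood at 1.99, 0.662 and 0.789 FPKM (log2 ratio 0.59, and 1.13 with a pseudocount of 0.1). Angptl4 was at 10.4, 14.9 and 31.3 FPKM (log2 ratio -0.74), and Fabp1, an abundant fatty acid carrier, was lower at 494, 939 and 1119.6 FPKM (log2 ratio -1.18). In the list of other fasting targets of PPARA, where 13 genes were measured, Cyp4a14 and Acot3 (7.54, 2.12 and 6.99 FPKM, log2 ratio 1.19) were higher and Fabp1 lower. Ppara itself was at 23.1, 17.9 and 9.34 FPKM (log2 ratio 0.09).

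Cholesterol synthesis stood near the median gene. None of 19 enzymes was past 2-fold (median -0.08, which is 0.18 as deposited), with Sqle, the squalene epoxidase, at 14.4, 15.96 and 8.88 FPKM (log2 ratio -0.40). Of sterol uptake, export and regulation genes 2 of 11 were higher. Abcg5, one subunit of the biliary sterol pump, stood at 35.7, 9.31 and 2.54 FPKM (log2 ratio 1.57) and its partner Abcg8 at 11.5, 4.37 and 1.72 FPKM (log2 ratio 0.97), and the HDL receptor Scarb1 at 32.3, 10.8 and 5.24 FPKM (log2 ratio 1.24). In bile acid synthesis 1 of 9 was higher and 1 lower. Cyp7a1, the rate-limiting enzyme of the main pathway, stood at 21.99, 20.3 and 12.7 FPKM (log2 ratio -0.15), Cyp8b1, which sets cholic acid, at 5.82, 9.59 and 10.1 FPKM (log2 ratio -0.89), and Cyp7b1, of the alternative pathway and a male-type enzyme, at 11.4, 61.04 and 6.42 FPKM (log2 ratio -2.58). Akr1d1, the 5-beta reductase, was at 59.6, 22.6 and 13.1 FPKM (log2 ratio 1.10). Of 12 transport and regulation genes 2 were higher and 1 lower. The sinusoidal uptake carrier Slco1a4 stood at 56.9, 3.601 and 2.06 FPKM (log2 ratio 3.40), its male-type neighbour Slco1a1 at 26.1, 72.8 and 35.2 FPKM (log2 ratio -1.70) and Slco1b2 at 148, 152 and 79.8 FPKM (log2 ratio -0.30). Klb, coreceptor for FGF15 and FGF21, was at 10.1, 2.34 and 2.102 FPKM (log2 ratio 1.47), while Nr1h4, the bile acid receptor FXR, was at 30.4, 32.7 and 15.1 FPKM (log2 ratio -0.36). Of apolipoprotein and VLDL genes 3 of 20 were higher, among them Apoa4 (376, 129.8 and 77.8 FPKM, log2 ratio 1.27) and Lpl (6.71, 1.33 and 0.867 FPKM, log2 ratio 1.47), and Pltp was lower (3.899, 10.01 and 9.31 FPKM, log2 ratio -1.43). Apob, the backbone of VLDL, was at 589, 263 and 209 FPKM (log2 ratio 0.90) and Mttp at 36.1, 25.5 and 19.4 FPKM (log2 ratio 0.23).

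Of 50 genes on a chosen list of drug and steroid metabolism 30 were higher in Ercc1 DR and none lower. That list leaves out enzymes that were lower, such as Cyp2d9, Ces3a, Sult2a7, Cyp7b1 and Hsd3b5, so its counts depend on the members chosen. Of the 20 P450 enzymes and their reductase on it 16 were higher and none lower (median 1.93). Cyp3a11, the main inducible P450 of bile acid and drug oxidation, stood at 716, 77.2 and 125 FPKM (log2 ratio 2.94). Of the Cyp3a family 7 of 8 were higher (median 2.23), led by Cyp3a41a at 62.2, 4.55 and 6.61 FPKM (log2 ratio 3.25). Cyp2c genes were split. Cyp2c39, at 129, 3.33 and 12.4 FPKM (log2 ratio 4.65), Cyp2c38, at 40.1, 1.13 and 6.42 FPKM (log2 ratio 4.01), and 5 others of 14 were higher, whereas Cyp2c67 was at 52.8, 85.99 and 28.9 FPKM (log2 ratio -0.95). In Cyp2c39 and Cyp2c38, wt AL lay between the mutant libraries, and Cyp2c29 was highest in wt AL (41.7, 7.19 and 52.2 FPKM, log2 ratio 2.12). Cyp2b9 stood at 16.1, 0.444 and 5.47 FPKM (log2 ratio 3.31) and Cyp2b10, the classical target of the receptor CAR, at 1.86, 0.257 and 0.277 FPKM (log2 ratio 0.93). Cyp1a2, a target of the aryl hydrocarbon receptor, was at 10.1, 7.83 and 3.45 FPKM (log2 ratio 0.07), and Cyp2e1 at 2431, 1164 and 415 FPKM (log2 ratio 0.80). Por, the reductase that all of them need, was at 156, 52.1 and 26.8 FPKM (log2 ratio 1.31). Of 10 Cyp2d genes only Cyp2d9, male-type, was past 2-fold (61.2, 119 and 97.6 FPKM, log2 ratio -1.21). Carboxylesterases were mixed, with 1 of 15 higher and 3 lower, the lowest being Ces3a at 50.3, 203 and 108 FPKM (log2 ratio -2.25). Members of these families are close copies, so reads may be split between them. None of 4 receptors of drugs and bile acids was past 2-fold, with Nr1i2 (PXR) at 6.59, 5.302 and 2.03 FPKM (log2 ratio 0.01) and Nr1i3 (CAR) at 8.11, 7.003 and 7.77 FPKM (log2 ratio -0.07).

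Conjugating enzymes and flavin monooxygenases on the same chosen list had 14 of 26 higher and none lower (median 1.32). The monooxygenases Fmo5 (189, 52.5 and 20.6 FPKM, log2 ratio 1.57) and Fmo2 (9.28, 2.41 and 2.45 FPKM, log2 ratio 1.33) were higher. Sulfotransferases, as a family that reaches beyond that list, were higher in 5 of 9 measured cases and lower in 1, Sult2a7 (0.447, 2.71 and 0.398 FPKM, log2 ratio -1.62), with Sult1a1 at 246, 57.8 and 34.5 FPKM (log2 ratio 1.81), Sult1d1 at 133, 33.6 and 9.82 FPKM (log2 ratio 1.69) and Sult3a1 at 7.41, 0.315 and 0.235 FPKM (log2 ratio 2.42). The family median of 1.32 was over measured members only, and -0.02 over all 18. Ugt1a1, which conjugates bilirubin, was at 102, 28.97 and 18.1 FPKM (log2 ratio 1.52). None of 7 Ugt2b genes was past 2-fold, with Ugt2b1 at 72.9, 94.98 and 21.4 FPKM (log2 ratio -0.64). Glutathione transferases were split. Gsta2, Gsta1, Gstm3, Gsta4, Gstm2 and Gstm1 were higher, at log2 ratios from 2.35 to 1.54, with Gstm1 at 270.1, 76.8 and 62.4 FPKM, while Gsta3 was at 147, 118 and 90.7 FPKM (log2 ratio 0.06) and Gstp1 at 145, 169.5 and 84.9 FPKM (log2 ratio -0.48). Those transferases made up 6 of the 7 higher genes in the NRF2 list of 20 (median 0.41), and Srxn1 was the seventh (8.47, 2.72 and 1.52 FPKM, log2 ratio 1.09). Nqo1, the usual reporter of NRF2, stood at 4.35, 1.77 and 0.912 FPKM (log2 ratio 0.69), Gclc, rate-limiting for glutathione, at 23.7, 16.4 and 8.94 FPKM (log2 ratio 0.25), and Hmox1 at 4.96, 7.29 and 4.83 FPKM (log2 ratio -0.74). Superoxide and peroxide enzymes had none of 17 higher, with Sod1 at a log2 ratio of 0.41, catalase, Cat, at -0.64 and Gpx3 lower (0.957, 2.55 and 1.25 FPKM).

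Male-biased liver genes were lower in 16 of 21 measured cases and higher in none (median -1.74), the reverse of the female-biased list, with 14 of 27 higher and none lower (median 1.13). The female-biased median was 2.09 with a pseudocount of 0.1 and 0.98, short of 2-fold, with no filter on low values. These lists share members with those above, such as Lepr, Sult1e1 and the Mup genes, and are not further evidence beside them. Male-type members outside those groups included Nudt7, a peroxisomal CoA hydrolase, at 27.7, 151 and 34.8 FPKM (log2 ratio -2.66), the terminal complement gene C6, at 13.5, 46.7 and 13.7 FPKM (log2 ratio -1.98), and Selenbp2, at 27.1, 54.99 and 10.3 FPKM (log2 ratio -1.25). In Nudt7, C6 and Selenbp2, wt AL was nearer to Ercc1 DR than to Ercc1 AL. Cux2 and Tox, female-type regulators, were at 1.66, 0.691 and 0.639 FPKM (log2 ratio 0.39) and 1.56, 0.272 and 0.183 FPKM (log2 ratio 0.75), and Bcl6, a male-type repressor, was lower at 1.35, 5.56 and 5.01 FPKM (log2 ratio -1.74). Female-type genes without a 2-fold difference included Cyp2c40 (31.6, 28.9 and 11.9 FPKM, log2 ratio -0.14) and Cyp17a1 (9.06, 6.800 and 4.25 FPKM, log2 ratio 0.11). The Y-linked genes Ddx3y (11.2, 6.497 and 3.81 FPKM) and Eif2s3y (19.5, 8.599 and 4.49 FPKM) were present in each library and Xist was at 0.437, 0.857 and 0.646 FPKM.

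**Figure D5:**
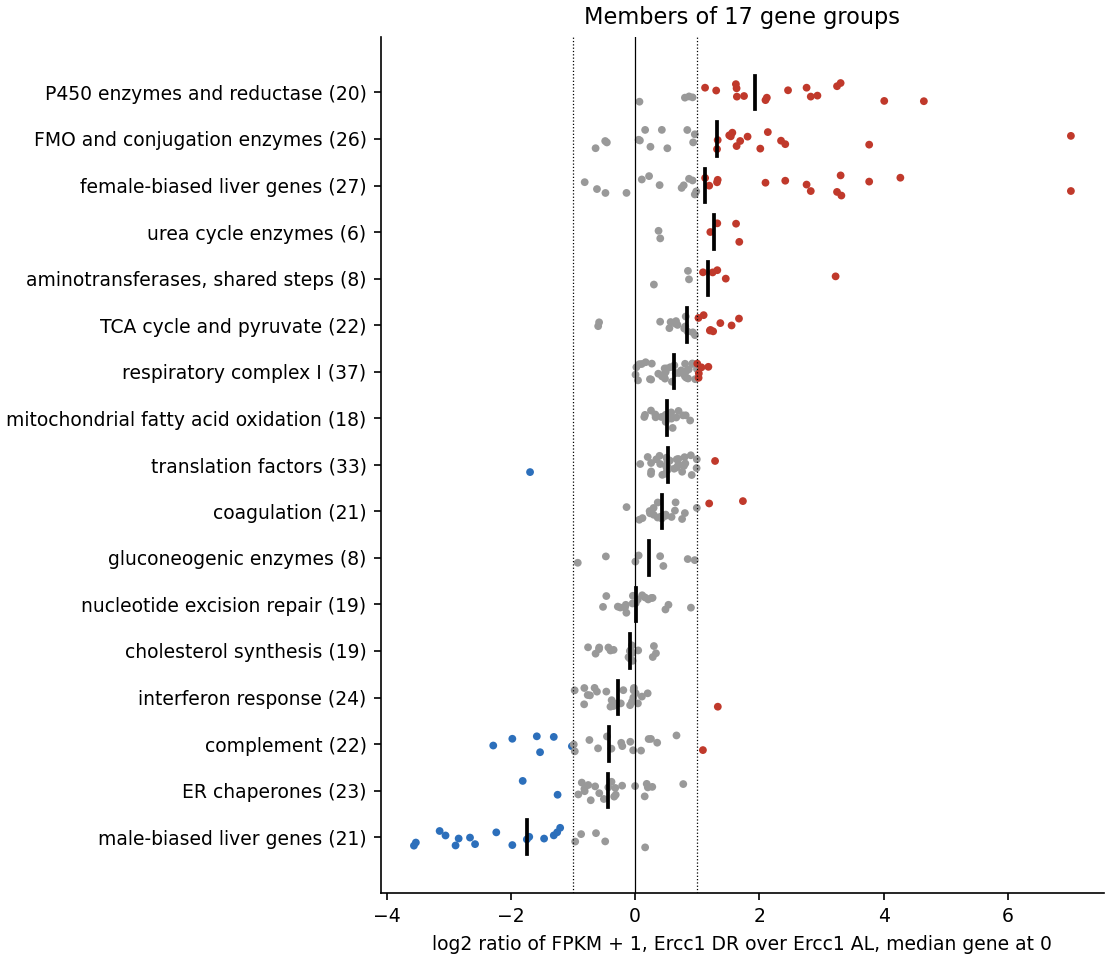
Log2 ratio of FPKM + 1 in Ercc1 DR over Ercc1 AL (x axis, median gene at 0, dotted lines at 2-fold) for each measured member of 17 gene groups, with the group's median as a black bar. Medians run from 1.93 for the listed P450 enzymes through 0.23 for gluconeogenic enzymes and -0.08 for cholesterol synthesis (0.18 as deposited) to -1.74 for male-biased genes.

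In the growth hormone axis the receptor Ghr stood at 39.1, 57.6 and 59.6 FPKM (log2 ratio -0.81) and the STAT5 feedback genes Socs2 and Cish at 19.7, 5.88 and 6.497 FPKM (log2 ratio 1.33) and 4.94, 0.981 and 9.73 FPKM (log2 ratio 1.33), with Cish highest in wt AL. Igf1, the hormone made in response, was at 56.1, 27.6 and 19.2 FPKM (log2 ratio 0.74), Igfbp2 at 95.96, 26.2 and 7.44 FPKM (log2 ratio 1.58) and Igfals, which keeps IGF1 in the blood, at 7.35, 8.38 and 8.53 FPKM (log2 ratio -0.43). Thyroid genes were mixed over 10 measured. Dio1 and the carrier Slco1a1 were lower, while Slc16a10, which carries aromatic amino acids and thyroid hormone, was at 23.4, 5.96 and 2.53 FPKM (log2 ratio 1.55) and Ttr, the thyroxine carrier of plasma, at 2062, 781 and 978 FPKM (log2 ratio 1.14). The thyroid target Thrsp was at 25.2, 26.01 and 78.3 FPKM (log2 ratio -0.31). Of 21 nuclear receptors none was past 2-fold (median 0.09), with Hnf4a, the central hepatocyte receptor, at 66.2, 38.6 and 23.7 FPKM (log2 ratio 0.50). Of 23 other liver transcription factors Foxa2 (8.77, 2.05 and 5.004 FPKM, log2 ratio 1.42) and Prox1 (19.8, 6.44 and 6.44 FPKM, log2 ratio 1.23) were higher and only Bcl6 lower.

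On the list of secreted liver proteins 9 of 23 were higher and 3 lower (median 0.62). That list also holds the receptor gene Lepr, described above, which is counted among the higher ones. Angiotensinogen, Agt, stood at 146, 52.6 and 53.9 FPKM (log2 ratio 1.19) and Rbp4, the retinol carrier, at 1667, 684 and 404 FPKM (log2 ratio 1.03). The 3 lower genes were Inhbe (1.85, 8.26 and 12.9 FPKM, log2 ratio -1.96), Inhbc (1.47, 4.58 and 4.62 FPKM, log2 ratio -1.44) and Enho (1.03, 5.25 and 1.102 FPKM, log2 ratio -1.88), of which the first pair encode activin subunits of liver. Hamp, the hormone hepcidin that blocks iron release, was at 608, 148 and 65.7 FPKM (log2 ratio 1.77), with a near-copy in Hamp2 (81.3, 33.8 and 17.4 FPKM, log2 ratio 0.98). Heavy-chain ferritin Fth1, which stores iron, was at 642, 252 and 227 FPKM (log2 ratio 1.09), and Slc40a1, the iron exporter that hepcidin removes, at 13.99, 14.03 and 13.9 FPKM (log2 ratio -0.26). Bmp6 and Id1, the signal and target of the hepcidin pathway, were at 8.19, 8.09 and 2.800 FPKM (log2 ratio -0.24) and 3.67, 4.37 and 1.16 FPKM (log2 ratio -0.46). Heme synthesis had none of 13 higher, with the rate-limiting Alas1 at 138, 81.2 and 95.8 FPKM (log2 ratio 0.50), Ppox lower at 4.64, 10.7 and 3.13 FPKM (log2 ratio -1.32) and the erythroid Alas2 at 2.497, 14.8 and 3.099 FPKM (log2 ratio -2.43). Metallothioneins, which bind zinc, were among the most abundant higher genes. Mt2 stood at 991, 172 and 55.1 FPKM (log2 ratio 2.26), Mt1 at 347, 87.9 and 20.3 FPKM (log2 ratio 1.71) and the zinc importer Slc39a14 at 66.9, 21.9 and 16.3 FPKM (log2 ratio 1.31), while Mtf1, their metal-sensing activator, was at 2.16, 2.202 and 2.11 FPKM (log2 ratio -0.28).

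Glucocorticoid targets had 7 of 23 higher and 1 lower (median 0.35). Fkbp5, a widely used reporter of the receptor, stood at 28.2, 8.64 and 5.64 FPKM (log2 ratio 1.34). Tat, Tdo2, Lpin1, Mt1, Mt2 and Sult1e1, named above, were the other 6. Tsc22d3 (GILZ) was at 22.2, 14.7 and 7.16 FPKM (log2 ratio 0.31), Per1 at 1.99, 1.63 and 1.37 FPKM (log2 ratio -0.08) and Sgk1 at 4.04, 4.02 and 3.63 FPKM (log2 ratio -0.25), and Cebpd was the lower member (0.876, 2.17 and 1.21 FPKM, log2 ratio -1.02). Clock genes have levels that depend on the hour, and adding 1 pulls the ratios of the low ones towards 0. On this scale none of 16 in the activating and repressing arms was past 2-fold. Arntl stood at 3.81, 1.87 and 1.49 FPKM (log2 ratio 0.48), Per2 at 3.36, 4.65 and 4.42 FPKM (log2 ratio -0.63) and Nr1d1 at 0.503, 1.45 and 1.52 FPKM (log2 ratio -0.96). With neither centring nor the added 1, Nr1d1 was more than 2-fold lower and Arntl just over 2-fold higher in Ercc1 DR. Of 11 outputs 3 were higher, Por, Gys2 and Nampt, the rate-limiting enzyme of NAD salvage (16.5, 5.78 and 3.23 FPKM, log2 ratio 1.11), while Dbp was at 0.823, 1.25 and 1.22 FPKM (log2 ratio -0.56). Whether the 2 livers were taken at the same hour is not known. Immediate early genes had none of 14 higher and 2 lower, Fos (1.55, 4.31 and 5.94 FPKM, log2 ratio -1.32) and Junb (1.42, 3.39 and 5.86 FPKM, log2 ratio -1.12). Of nutrient sensors of the TORC1 and AMPK lists, Sesn1, a brake on TORC1, was higher (7.32, 1.65 and 0.803 FPKM, log2 ratio 1.39), Sesn3, a forkhead target, was lower (5.46, 12.4 and 6.59 FPKM, log2 ratio -1.31) and the other 16 lay within 2-fold.

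Stress genes of the endoplasmic reticulum lay mostly below the median gene, 17 of 23 (median -0.43), with none higher and 2 lower. Creld2 stood at 4.68, 15.6 and 8.26 FPKM (log2 ratio -1.81) and the chaperone Hyou1 at 10.7, 22.1 and 12.5 FPKM (log2 ratio -1.25). Hspa5 (BiP), the main chaperone and sensor, was at 105, 138 and 53.9 FPKM (log2 ratio -0.64), and Dnajb9, Manf and Pdia4 at log2 ratios of -0.75, -0.81 and -0.82, while P4hb was at 262, 127 and 98.6 FPKM (log2 ratio 0.78). In Hspa5, Dnajb9 and Creld2, wt AL was below Ercc1 AL. Targets of the integrated stress response had none of 11 past 2-fold, with Atf4 at 15.05, 11.4 and 11.8 FPKM (log2 ratio 0.11) and Ddit3 at 3.25, 5.44 and 3.23 FPKM (log2 ratio -0.86). Cytosolic and mitochondrial chaperones went both ways. Hspa9, which pulls proteins into mitochondria, was higher at 110.1, 37.4 and 22.8 FPKM (log2 ratio 1.27), with Hspd1 at 106, 52.03 and 29.6 FPKM (log2 ratio 0.75), and Hspb1 (11.4, 23.9 and 38.00 FPKM, log2 ratio -1.26) and Hsph1 (11.3, 21.01 and 11.3 FPKM, log2 ratio -1.10) were lower. The median of these 17 was -0.04, which is 0.22 as deposited.

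Genes of the DNA damage response showed few differences. Of 22 p53 targets 1 was higher, Sesn1, and 2 lower, Phlda3 (0.984, 3.22 and 0.332 FPKM, log2 ratio -1.35) and Eda2r (1.18, 3.36 and 0.740 FPKM, log2 ratio -1.26) (median -0.04, 0.22 as deposited). Cdkn1a, the cell cycle inhibitor p21, stood at 30.8, 16.3 and 6.72 FPKM (log2 ratio 0.62), Mdm2 at 6.75, 4.56 and 4.16 FPKM (log2 ratio 0.22) and Ccng1 at 17.8, 18.96 and 4.38 FPKM (log2 ratio -0.35), so these did not follow Phlda3. None of 19 nucleotide excision repair genes was past 2-fold (median 0.01), with Xpa, which verifies damage, at 6.104, 2.18 and 1.63 FPKM (log2 ratio 0.90) and Ercc4, the partner of Ercc1, at 1.01, 0.985 and 0.829 FPKM (log2 ratio -0.24). Of 12 crosslink and double strand break genes only Fancm was lower (2.898, 6.18 and 4.48 FPKM, log2 ratio -1.14). Cell cycle genes were scarce, with 16 of 31 measured, 5 lower and none higher. The lower ones were the replication helicase genes Mcm2 (1.51, 5.28 and 12.05 FPKM, log2 ratio -1.58), Mcm6 (log2 ratio -1.57) and Mcm7 (-1.29), Bub1 (-1.44) and E2f1 (-1.01). Pcna, the replication clamp, was at 11.1, 5.79 and 3.18 FPKM (log2 ratio 0.57), and Ccnd1 at 8.33, 6.79 and 1.86 FPKM.

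Inflammation genes did not move as one group. Besides Saa1 and Saa2 the serum amyloids Saa3 (1.29, 5.95 and 3.11 FPKM, log2 ratio -1.87) and Saa4 (5.36, 22.2 and 18.01 FPKM, log2 ratio -2.13) were lower. Other acute phase proteins were not, with haptoglobin Hp at 441, 466 and 276 FPKM (log2 ratio -0.34), Orm1 at 163, 107 and 65.7 FPKM (log2 ratio 0.34), Crp at 58.4, 38.03 and 29.8 FPKM (log2 ratio 0.35), Lcn2 at 22.03, 19.1 and 0.959 FPKM (log2 ratio -0.06) and ceruloplasmin Cp higher at 343, 129 and 79.4 FPKM (log2 ratio 1.14). Over 24 such proteins 2 were higher and 4 lower (median 0.29). Ctsl, the second higher one, is a lysosomal protease (200.2, 39.5 and 17.9 FPKM, log2 ratio 2.05). Regulators of the response had none of 11 higher, with the IL-6 receptor Il6ra at 9.25, 4.16 and 3.11 FPKM (log2 ratio 0.73) and Socs3 at 1.09, 1.58 and 1.64 FPKM (log2 ratio -0.57). Complement and coagulation factors are secreted by liver. Of 22 complement genes 6 were lower and 1 higher (median -0.42). The terminal pathway genes C8a (10.8, 46.98 and 26.5 FPKM, log2 ratio -2.28) and C8b (25.6, 54.05 and 22.7 FPKM, log2 ratio -1.31), C6 as above, the lectin Mbl1 (7.05, 19.1 and 15.02 FPKM, log2 ratio -1.58), C4b (23.9, 58.97 and 58.8 FPKM, log2 ratio -1.53) and C1qa, a macrophage gene, were the lower ones, and C3, the hub of the cascade, was the higher one (1094, 428 and 404 FPKM, log2 ratio 1.09). Of 21 coagulation genes 2 were higher and none lower (median 0.43), Pros1, the cofactor protein S (41.6, 9.68 and 3.85 FPKM, log2 ratio 1.74), and factor V, F5 (125, 44.9 and 29.00 FPKM, log2 ratio 1.19). Interferon response genes had 1 of 24 higher, Usp18 (11.96, 3.303 and 2.04 FPKM, log2 ratio 1.33), and none lower (median -0.27), and antigen presentation none of 15 past 2-fold (median -0.33).

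Protein synthesis genes lay above the median gene. Of 33 translation factors 32 were above 0 (median 0.53), with Eif1 higher (103, 34.6 and 18.5 FPKM, log2 ratio 1.29) and Eif2s1, the alpha subunit of the factor that stress kinases phosphorylate, lower (13.6, 38.5 and 50.96 FPKM, log2 ratio -1.69). Of 73 cytosolic ribosomal proteins measured 63 were above 0 (median 0.40), 4 higher and 1 lower. Rpl39 stood at 373, 121 and 68.2 FPKM (log2 ratio 1.36) and Rps2 at 271, 576 and 402 FPKM (log2 ratio -1.35). Mitochondrial ribosomal proteins had a median of 0.38 (76 genes, 1 higher, 1 lower). These medians are close to the 0.39 of all official genes of 20 to 100 FPKM. Npm1, a nucleolar chaperone, was higher at 83.2, 21.4 and 10.7 FPKM (log2 ratio 1.65), with Ncl and Gnl3 also past 2-fold in a list of 21 for ribosome biogenesis. Rrp9, of the box C/D RNA particle, was lower at 432, 1839 and 3262 FPKM (log2 ratio -2.35) and Rrp12 at 4.24, 8.65 and 11.5 FPKM (log2 ratio -1.14), and Rrp9 was the most abundant gene of that list in wt AL. Transfer RNA synthetases had none of 20 past 2-fold (median 0.14), and 1 of 33 splicing factors was higher, Sf3b1 (22.7, 8.79 and 5.71 FPKM, log2 ratio 1.01). Proteasome subunits had 0 of 31 higher and 1 lower (median 0.31), Psmc4, at 119.8, 217 and 219 FPKM (log2 ratio -1.11). Of 24 autophagy genes Bnip3, a mitophagy receptor, alone was higher (73.1, 29.7 and 17.6 FPKM, log2 ratio 1.01), with Map1lc3b at 38.7, 17.7 and 11.1 FPKM (log2 ratio 0.83), Sqstm1 at 34.3, 25.2 and 13.6 FPKM (log2 ratio 0.17) and Ulk1, the kinase that starts the process, at 5.55, 2.25 and 1.61 FPKM (log2 ratio 0.75). Lysosomal genes had a median of 0.30, with Ctsl higher and Ctss, a protease of immune cells, lower (8.69, 19.2 and 34.7 FPKM, log2 ratio -1.32). Clustered histone genes had 9 of 57 higher and 1 lower. Of the 9, 8 were near-identical H4 genes that share reads, at log2 ratios up to 1.70 in Hist2h4 (20.8, 4.59 and 34.7 FPKM), and the other was the linker histone Hist1h1c (24.04, 8.41 and 3.89 FPKM, log2 ratio 1.15).

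Noncoding RNAs lay low, with 5 of 14 lower and none higher (median -0.62). Malat1 and Neat1, nuclear RNAs, were at 219, 165 and 90.1 FPKM (log2 ratio 0.15) and 32.9, 26.8 and 25.1 FPKM (log2 ratio 0.03). Tug1 stood at 318, 685 and 391 FPKM (log2 ratio -1.36), the telomerase RNA Terc at 21.3, 53.5 and 50.9 FPKM (log2 ratio -1.55) and Rian of the imprinted Dlk1-Meg3 locus at 2.303, 5.82 and 0.627 FPKM (log2 ratio -1.31). Terc is a short transcript, and the small RNA genes described above had a median of -1.82.

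Hepatocyte markers were present in each library, with Alb missing as stated. Transferrin, Trf, stood at 2859, 1551 and 1718 FPKM (log2 ratio 0.62). The summed level of the 15 hepatocyte markers with a value was 13518 FPKM in Ercc1 DR, 6632 in Ercc1 AL and 5789 in wt AL, with 4 of 15 higher. These sums are not centred, and a typical gene has the same order. Markers of the other cell types of liver had lower sums. A sum depends on the markers listed, so the share of RNA from each cell type was not measured. Sinusoidal endothelial markers summed to 32.9, 56.5 and 64.1 FPKM, with 15 of 16 below the median gene and 2 lower, Oit3 (4.84, 15.2 and 14.4 FPKM, log2 ratio -1.73) and Gpr182 (1.49, 5.29 and 10.5 FPKM, log2 ratio -1.60), while Stab2 was at 1.72, 2.36 and 3.399 FPKM (log2 ratio -0.56). Kupffer cell and macrophage markers summed to 30.5, 47.7 and 35.6 FPKM, all 12 measured below the median gene (median -0.73), with Clec4f at 3.98, 6.74 and 4.91 FPKM (log2 ratio -0.90) and Cd5l at 2.95, 4.46 and 2.72 FPKM (log2 ratio -0.72). Stellate cell markers summed to 58.7, 58.1 and 39.6 FPKM, with none past 2-fold. Of 11 measured, 10 lay below the median gene (median -0.38). The 1 above it was Dcn, at 30.8, 24.5 and 13.5 FPKM (log2 ratio 0.06). Neutrophil markers summed to 7.17, 11.8 and 15.6 FPKM and lymphocyte markers to 9.55, 20.2 and 29.6 FPKM, with 1 of 17 measured, Cd79b (5.55, 13.3 and 24.9 FPKM, log2 ratio -1.39). Cholangiocyte markers, 3 of 10 measured, summed to 7.51, 8.26 and 10.99 FPKM. In bulk RNA fewer cells of a type and less RNA per cell cannot be told apart. Over official genes measured the median was -0.46 at a mean level under 1 FPKM and -0.21 from 1 to 2 FPKM. The first value also depends on the filter, which keeps such genes only where a mutant library reached 1 FPKM. Erythroid markers summed to 308, 594 and 936 FPKM with 3 of 7 lower, and the freely fed sums were mostly Klf1 (133, 480.4 and 758 FPKM, log2 ratio -2.11), whereas the globin gene Hba-a2 was at 151, 72.3 and 145 FPKM (log2 ratio 0.79). Adipocyte markers summed to 56.7, 180.2 and 220.3 FPKM, and Car3 made up most of that sum in the freely fed libraries (23.2, 127 and 198 FPKM, log2 ratio -2.66), with Adipoq, which defines these cells, at 0.149, 0.492 and 0.320 FPKM. Markers of other organs were at low levels, with the pancreatic list at a sum of 9.24, 17.5 and 14.2 FPKM and the muscle list at 16.5, 25.0 and 18.3 FPKM.

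Genes of the periportal zone, where amino acids are broken down, had 7 of 15 higher (median 0.85). Beside Sds, Hal, Arg1 and Asl these were Hsd17b6 (77.3, 13.6 and 11.6 FPKM, log2 ratio 2.16), Cdh1 (8.41, 2.59 and 0.868 FPKM, log2 ratio 1.13) and Hsd17b13 (73.8, 28.5 and 32.03 FPKM, log2 ratio 1.08). Pericentral genes had 2 of 16 higher (median 0.34), Gstm3 and Oat (162, 65.5 and 40.8 FPKM, log2 ratio 1.03), while Glul, Slc1a2 (log2 ratio -0.25) and Rgn (-0.57) were below the median gene. The difference between the zones was not tested, and 4 periportal genes are the amino acid and urea enzymes already described.

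Gene length had little relation to the diet difference. Studies of DNA repair mutants ask whether long genes lose expression, since they offer more room for damage per transcript. Over 7843 official genes with at least 1 FPKM in each library, Spearman's rho between gene span and the log2 ratio was 0.03 across genes, a description only since genes are not replicates. Split into 10 bins by span, the longest genes, from 97.0 kb upward, had a median log2 ratio of -0.03, with 76 of 784 lower and 21 higher. The shortest, with a median span of 2.40 kb, had one of -0.06, and the bins between lay at 0.03 to 0.13. Set beside it, Ercc1 AL over wt AL, which shares the Ercc1 AL library, had a median of -0.14 among the longest and -0.04 among the shortest. Longer genes were also less expressed, with a median level of 3.01 FPKM among the longest and 5.65 among the shortest, and level went with the ratio more closely (rho 0.32).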

How the data were processed

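RNA was extracted from flash-frozen liver, ribosomal RNA was removed with a RiboMinus kit and libraries followed an Illumina TruSeq protocol, per the labels' protocols. The authors deposited 1 table of FPKM values per library, with an interval and a status for each gene, per the file headers. The build was mm10, per the submitters' processing notes, and the sources used here do not give the quantification tool, annotation, strand use or depth. Rows of status HIDATA or FAIL were treated as missing (56 in Ercc1 DR, 96 in Ercc1 AL). Of rows that share a symbol, the one with the highest mean FPKM was kept, which leaves 23356 of 23850 rows.

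From these values log2 ratios of FPKM + 1 were computed and centred as described. No test was made, and deposited intervals cover counting error and fragment assignment only. The calculation was tested on simulated data. The text names Ercc1, the 15 highest and 15 lowest official genes of at least 5 FPKM in either mutant library, up to 4 members of each list with the largest ratios, rate-limiting steps, and abundant or 2-fold markers. Further list members were named after their values were seen. Some items are not reported here. The comparison, lists and markers were chosen with earlier results of these data known. Overlapping exons came from GENCODE on GRCm38 and promoter sequences from RefSeq. Alternatives changed the pseudocount, the low-value filter, the centring, the point value and the handling of repeated symbols. Python 3.11.15, pandas 2.3.3, numpy 2.4.6 and matplotlib 3.10.9 were used.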

Additional observations from a re-analysis of the deposited data

How the results depend on the processing

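With 1 library a group, no replicate could be left out. The deposited intervals were wider, relative to their midpoint, for low genes than for abundant ones. Of all genes measured, 397 were higher and 1547 lower in Ercc1 DR. The lower count was 2577 with a pseudocount of 0.1 and 1011 where either mutant library reached 5 FPKM, and the higher count was 796 without centring. Over all alternatives run, the higher count ranged from 356 to 796 and the lower from 1011 to 2577. The longest genes' median, less that of all genes, was -0.09, and -0.20 among genes of at least 5 FPKM. The sulfotransferase family median of 1.32 was 2.22 with a pseudocount of 0.1 and -0.015 with no filter on low values. The female-biased median of 1.13 was 2.59 where either mutant library reached 5 FPKM. The causes of these shifts were not tested, beyond the different genes counted under another filter. Of 222 genes past 2-fold that the naming rule or the text picks, 202 stayed so in the same direction without centring, 214 with a pseudocount of 0.1, 208 when libraries were rescaled before the pseudocount and 216 at the midpoint of the interval. Of 111 group medians, 13 were of the other sign without centring, and 10 of 108 were when 5 FPKM was required. No paired analysis was possible because each group has a single library.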

Other observations

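In 3 complexes or pathways whose members were mostly above the median gene, a single member was lower in Ercc1 DR, and these were picked out after their values were seen. They were Mccc2 (29.2, 82.5 and 169 FPKM), Eif2s1 (13.6, 38.5 and 50.96 FPKM) and Psmc4 (119.8, 217 and 219 FPKM), each in the order Ercc1 DR, Ercc1 AL and wt AL. In these 3 genes, wt AL was the highest of the 3 libraries. Other groups mostly above the median gene also had a single lower member, such as Rps2, Sesn3 and Gpx3. In those, Ercc1 AL was the highest, so the order is not general to such members.

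The order of Mccc2, Eif2s1 and Psmc4, lowest in Ercc1 DR and highest in wt AL, was also seen in some abundant transcripts. These come from genes known mainly from other tissues or states. Cdc25a, a cell cycle phosphatase, stood at 220.1, 1004 and 1576 FPKM, while the replication gene Mcm2 was at low levels in each library. Smad6, an inhibitor of BMP signalling, stood at 71.8, 318 and 546 FPKM. Klf1, an erythroid factor, stood at 132.7, 480.4 and 758 FPKM. Sost, a bone gene, stood at 31.6, 125 and 168 FPKM, and the olfactory receptor Olfr547 at 60.7, 243 and 322 FPKM, where the median olfactory or vomeronasal receptor was at 0.0916 FPKM in Ercc1 DR. The interval deposited with each of these 5 values in each library does not hold the value itself.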
